A study of Mus musculus with 29 samples.

Results

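Potassium channels end each atrial action potential and hold the resting potential, and 10 genes that encode channels or channel subunits of atrial repolarization are described here in RNA sequencing of whole atria from male mice. The 10 were taken by name from the 55292 genes counted in 29 libraries: Kcna5, Kcnj2, Kcnj3, Kcnj5, Kcnh2, Kcnq1, Kcnd2, Kcnd3, Kcnip2 and Kcnk3. All 10 passed the filter on low counts in both experiments of the study, which left 16168 genes in the first and 16482 in the second.

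The first experiment crossed genotype with diet. Control mice (Ctrl) and transgenic mice labelled NaV1.5, the cardiac sodium channel, received a regular diet (RD) or a high-fat diet (HFD) for 4 weeks starting at 5 weeks of age. The regular diet groups, Ctrl_RD and NaV1.5_RD, have 4 libraries each, Ctrl_HFD has 4 and NaV1.5_HFD has 5. In the other experiment all mice carried the NaV1.5 label and were fed HFD for 4 weeks, also starting at 5 weeks of age. They received vehicle (5 libraries) or nicotinamide riboside, a precursor of NAD (NR, 7 libraries). The strain, the form of the transgene and its promoter are not given in the sources used here. Whether libraries stem from separate mice is not stated either, so p-values cover only the spread between libraries, which may be technical.

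Total counts were 13189995 to 33061018 per library. The labels give a batch number without saying what the batch is. All diet libraries carry batch 1 except Ctrl_HFD replicate 4 (batch 2), which the batch term absorbs, so fitted differences rest on the other 3 Ctrl_HFD libraries. All vehicle libraries and NR replicates 6 and 7 carry batch 3, and NR replicates 1 to 5 carry batch 2. The atrial light chain gene Myl7 lay between 3348 and 11746 CPM (counts scaled to library size, with TMM factors within each experiment) and the ventricular light chain gene Myl2 between 0.539 and 326 CPM over all libraries. Levels are not compared between experiments, which were scaled separately and lie in different batches. In whole tissue, fewer cells of a type and less RNA per cell cannot be told apart.

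In heart muscle, inward rectifier channels set the resting potential, and in the atrium one kind of them opens when acetylcholine activates a G protein. Transient outward current starts repolarization and delayed rectifier currents complete it. Two-pore channels add a background leak that differs between atrium and ventricle. Most of these channels assemble from several subunits, and auxiliary proteins set how many reach the membrane and how fast they inactivate.

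Kcnj2 is the gene of the inward rectifier Kir2.1 (GRCm38 chromosome 11, 111066164 to 111076821, plus strand). It was the 1 gene of the 10 that passed the main edgeR test in any comparison, and other tools and scalings called others, as given below. Kcnj2 rose with the NaV1.5 genotype when both diets were averaged. Kcnh2 was the closest to passing for the diet. Their upstream windows are printed because these were the 2 genes whose libraries did not overlap between diets in NaV1.5 mice, Kcnj2 on the high side and Kcnh2 on the low side. Each is the 250 bases before the RefSeq start (GRCm38.p6), 5′ to 3′ on the gene's strand, chr11:111065914-111066163 (plus) for Kcnj2 and chr5:24329592-24329841 (minus) for Kcnh2. The Kcnh2 window lies before an internal start, inside the gene's counted span of 24319589 to 24351604. Capitals mark the GC box GGGCGG.
Kcnj2: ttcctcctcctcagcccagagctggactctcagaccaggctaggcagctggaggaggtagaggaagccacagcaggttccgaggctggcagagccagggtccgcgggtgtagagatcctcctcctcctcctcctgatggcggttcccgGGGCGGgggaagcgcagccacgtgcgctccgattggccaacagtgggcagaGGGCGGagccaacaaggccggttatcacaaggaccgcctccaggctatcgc
Kcnh2: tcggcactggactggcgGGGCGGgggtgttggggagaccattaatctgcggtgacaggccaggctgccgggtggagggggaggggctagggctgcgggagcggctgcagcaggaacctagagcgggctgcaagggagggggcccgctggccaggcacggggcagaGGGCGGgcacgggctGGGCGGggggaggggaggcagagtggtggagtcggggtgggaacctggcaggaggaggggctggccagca
Counted on both strands, the Kcnj2 window held the GC box 2 times, CACGTG 1 time and CCAAT 1 time, and the Kcnh2 window held the GC box 3 times and neither of the other motifs. TATAAA and AGATAA had 0 matches in both. Among 32851 RefSeq windows of the same length, 32.7% held GGGCGG, 33.8% CCAAT, 6.02% CACGTG, 12.4% TATAAA and 9.99% AGATAA. A window was found for 8 of the 10 genes.

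Levels were compared between genes after CPM was divided by exon length (CPM per kb of exon). In Ctrl_RD atria Kcnj3, the GIRK1 subunit of the acetylcholine-gated channel, was highest at 126 ± 6.73 (SD, n = 4), followed by Kcnk3, the two-pore channel TASK-1, at 98.4. The partner GIRK4 subunit Kcnj5 followed at 45.2 ± 5.22, and its range overlapped that of Kcnh2, the hERG channel of rapid delayed rectifier current, at 41.8 ± 3.86. Kcnip2, the KChIP2 subunit of transient outward channels, lay at 19.3 and overlapped Kcnq1, the slow delayed rectifier, at 15.8 ± 1.90. Kcnj2 was at 6.64 ± 0.617. The lowest were the ultrarapid delayed rectifier Kcna5 (2.76 ± 0.528), which overlapped Kcnd2 (2.03 ± 0.507), and then Kcnd3 (1.14 ± 0.142). Kcnd2 and Kcnd3 encode the Kv4.2 and Kv4.3 pores of transient outward current. Kcnj3 stood 111-fold above Kcnd3 in Ctrl_RD, and 98.9-fold (batch 1 Ctrl_HFD) to 120.3-fold above it in the other 3 diet groups.

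The order of the first 7 was the same in all 4 diet groups, and the separation between neighbours was not. In NaV1.5_HFD, Kcnj2 at 9.81 ± 0.875 overlapped Kcnq1 at 10.6 ± 1.67, whereas these neighbours did not overlap in the other 3 groups. Kcnd2 (2.79) also stood before Kcna5 (2.41) there, with overlapping ranges. These orders rest on exon lengths from the count files and were not tested.

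**Figure D1:**
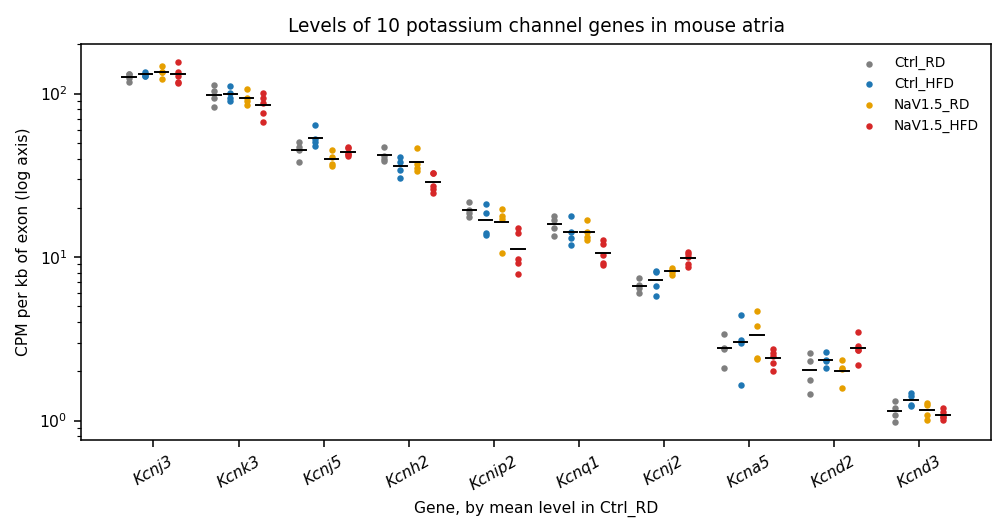
Level of each gene in CPM per kb of exon (log axis) in the 17 libraries of the diet experiment. Points are libraries, coloured by group, and black lines are group means; Kcnj3 lies highest and Kcnd3 lowest in every group, and Kcnj2 and Kcnq1 meet only in NaV1.5_HFD.

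Genotype was first compared on regular diet, where Kcnj2 had the smallest p of the 10. Kcnj2 was at 36.5, 40.6, 32.6 and 35.0 CPM in Ctrl_RD replicates 1 to 4 and at 44.3, 46.8, 42.0 and 45.6 CPM in NaV1.5_RD replicates 1 to 4. Every NaV1.5_RD library thus lay above every Ctrl_RD library. The log2 difference was 0.31 (SE 0.11) and did not pass (edgeR adjusted p = 0.666). The other 9 genes overlapped between genotypes, with log2 differences from -0.25 for Kcnip2 to 0.27 for Kcna5. Of the 10 genes, 0 passed in edgeR, DESeq2 or limma-voom, and over all genes these called 0.0124%, 0.167% and 0.0928%. At an unadjusted p under 0.05 there was 1 of 10, beside 6.11% of all genes. The count of genes without overlap was also 1 of 10, beside 3.40% of all genes.

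On high-fat diet, Kcnj2 was again higher in NaV1.5 atria and several of the other channel genes had lower values. Kcnj2 was at 44.9, 44.2 and 31.4 CPM in the batch 1 Ctrl_HFD libraries (replicates 1 to 3), at 36.3 CPM in Ctrl_HFD replicate 4, and at 58.4, 47.4, 49.7, 54.6 and 57.1 CPM in NaV1.5_HFD. All 5 NaV1.5_HFD libraries lay above all 4 Ctrl_HFD libraries, with a log2 difference of 0.41 (SE 0.11, edgeR adjusted p = 0.238). Kcnj5 was at 224, 245 and 302 CPM in batch 1 Ctrl_HFD and at 216.5, 220.0, 195, 199.9 and 201 CPM in NaV1.5_HFD, so each NaV1.5_HFD library lay below each control library. Its log2 difference was -0.32 (SE 0.11, adjusted p = 0.417). Kcnd3 was at 11.7, 14.2 and 12.0 CPM in batch 1 Ctrl_HFD and at 10.8, 10.1, 10.1, 11.5 and 9.69 CPM in NaV1.5_HFD, also without overlap, at -0.28 (SE 0.12, adjusted p = 0.534). Kcnip2, Kcnq1 and Kcnh2 had overlapping libraries, with log2 differences of -0.46 (SE 0.21), -0.42 (SE 0.14) and -0.35 (SE 0.13).

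In this comparison 0 of the 10 genes passed in edgeR, DESeq2 or limma-voom, which called 0.0866%, 0.575% and 0.767% of all genes. At an unadjusted p under 0.05 there were 6 of 10 (Kcnj2 higher, Kcnj5, Kcnh2, Kcnq1, Kcnd3 and Kcnip2 lower), beside 8.05% of all genes. Libraries did not overlap for 3 of 10, beside 5.44% of all genes. The median log2 difference of the 10 was -0.29, beside 0.01 over all genes tested. Summed CPM of 12 atrial cardiomyocyte markers was 75180 to 82992 in NaV1.5_HFD and 84657 to 90687 in batch 1 Ctrl_HFD. Sums were 864 to 2915 against 571 to 764 CPM for 6 erythroid markers. The sum of 7 adipocyte markers was 502 to 659 against 337 to 451 CPM, nearly all of it Fabp4 (485 to 642 against 323.5 to 429.6), a fatty acid carrier that endothelial cells also express. The defining adipocyte genes were near 0 in both groups and overlapped, with Adipoq at 0 to 1.42 against 0.363 to 1.40 CPM and Plin1 at 0 to 0.379 against 0.0932 to 0.624 CPM. The part of these marker differences in the channel values was not tested. Scaling to cardiomyocyte genes moved the median of all genes by 0.18. Kcnj2 then differed by 0.59 (adjusted p = 0.0183), while Kcnj5, Kcnh2, Kcnq1, Kcnd3 and Kcnip2 were at -0.15, -0.18, -0.25, -0.10 and -0.30, with adjusted p from 0.311 to 0.625.

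Averaged over both diets, genotype gave the 1 edgeR call among the 10 genes. Kcnj2 rose in NaV1.5 atria by a log2 difference of 0.36 (SE 0.08, edgeR adjusted p = 0.039), and all 9 NaV1.5 libraries lay above their diet's control libraries. Of all genes 0.452% passed in this comparison in edgeR. With limma-voom Kcnj5 passed as well, on the low side. Over all alternatives 36 to 523 of all genes were called. At an unadjusted p under 0.05 there were 5 of 10 beside 11.4% of all genes: Kcnj2 higher, and Kcnj5 (-0.25), Kcnh2 (-0.24), Kcnq1 (-0.28) and Kcnip2 (-0.35) lower, with adjusted p from 0.165 to 0.359. The summed atrial cardiomyocyte markers overlapped between genotypes on regular diet, at 88720 to 94807 in Ctrl_RD and 84902 to 93933 in NaV1.5_RD. The ventricular gene Myl2 was at 3.13 to 80.2 CPM in Ctrl_RD and 8.98 to 193 CPM in NaV1.5_RD. On high-fat diet it was at 0.994 to 5.146 CPM in batch 1 Ctrl_HFD and 5.149 to 102 CPM in NaV1.5_HFD. Other ventricular markers differed from Myl2 in this averaged comparison, none passing. Myh7 (-0.32), Lrrc10 (-0.27), Nkain1 (-0.21) and Pln (-0.07) were lower and Hey2 (0.13) higher. Summed CPM of 8 ventricular markers overlapped, at 1178 to 1445 in Ctrl_RD and 1028 to 1431 in NaV1.5_RD. On high-fat diet the sums were 1224 to 1474 in batch 1 Ctrl_HFD and 953.5 to 1534 in NaV1.5_HFD. The part of tissue composition in the Kcnj2 difference was not tested.

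The Kcnj2 call sits close to the threshold. Over the other tools, scalings and filters its log2 difference was 0.31 to 0.47, and in batch 1 libraries alone it was 0.35 (adjusted p = 0.0467). With the replicate number as a block it was 0.33 and did not pass (adjusted p = 0.117). That fit also left out Ctrl_RD replicate 1 and NaV1.5_RD replicate 4, whose titles hold no number, so block and omission are not separated. The call was kept without 7 of the 17 libraries and lost without the other 10, while the log2 difference stayed between 0.27 and 0.40. The 7 include Ctrl_HFD replicate 4, which the batch term absorbs and whose omission leaves the same libraries as the batch 1 fit. Among the 10 libraries whose omission ended the call, the adjusted p was 0.0972 without Ctrl_RD replicate 1, 0.0798 without replicate 3 and 0.0577 without replicate 4. It was 0.0545 without Ctrl_HFD replicate 2 and 0.105 without Ctrl_HFD replicate 3, the library with the lowest Kcnj2 of that group. It was 0.086 without NaV1.5_RD replicate 1 and 0.102 without NaV1.5_RD replicate 2. Without NaV1.5_HFD replicates 1, 4 or 5 it was 0.0558, 0.0696 and 0.0585.

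**Figure D2:**
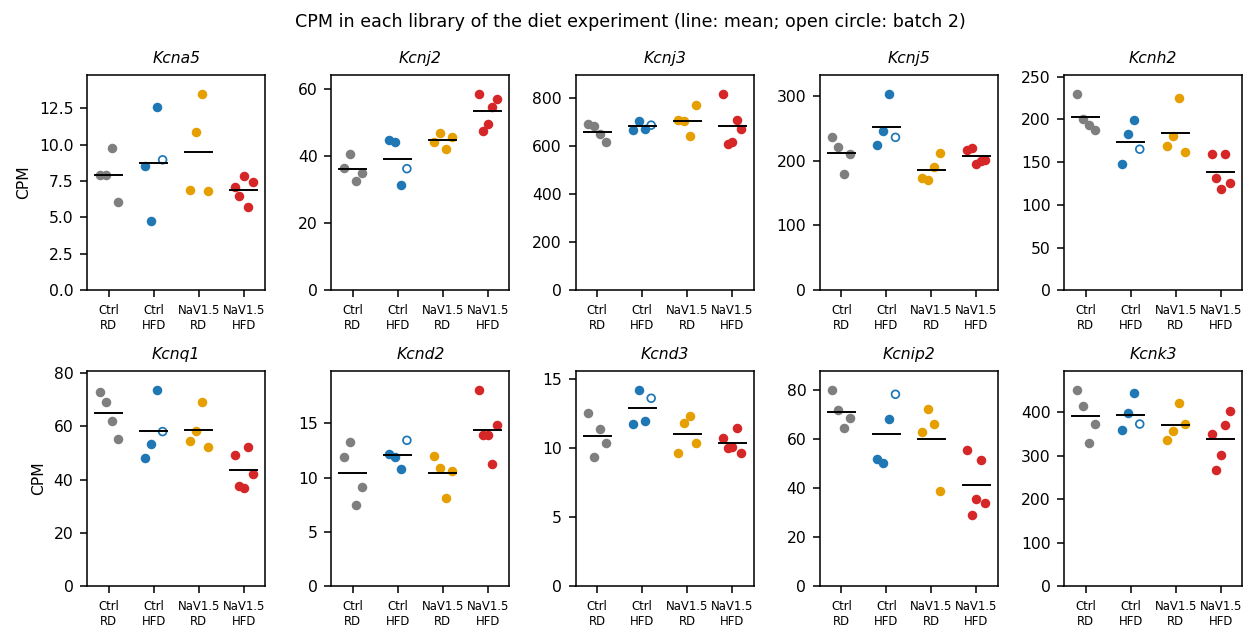
CPM of each gene in the 17 libraries of the diet experiment (linear axes from 0). Points are libraries, lines are group means, and the open circle is Ctrl_HFD replicate 4 of batch 2. All 9 NaV1.5 libraries lie above their diet's controls for Kcnj2. NaV1.5_HFD has the lowest mean for Kcnh2, Kcnq1, Kcnip2, Kcna5, Kcnd3 and Kcnk3.

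The diet was next compared within NaV1.5 mice, where delayed rectifier and KChIP2 genes had lower values on HFD and Kcnj2 and Kcnd2 higher ones, and none passed in edgeR. Kcnh2 was at 169, 180.1, 225 and 162 CPM in NaV1.5_RD and at 159, 131, 119, 159 and 126 CPM in NaV1.5_HFD. Each HFD library lay below each RD library, with a log2 difference of -0.41 (SE 0.12, edgeR adjusted p = 0.077). Kcnq1 was at 54.3, 58.3, 68.9 and 52.0 CPM on RD and at 49.0, 37.6, 36.8, 52.1 and 42.0 CPM on HFD. NaV1.5_HFD replicate 4 reached into the RD range, and the log2 difference was -0.42 (SE 0.13, adjusted p = 0.0977). Kcnip2 was at 62.6, 72.3, 65.8 and 38.7 CPM on RD and at 55.5, 28.98, 35.7, 51.3 and 33.8 CPM on HFD. NaV1.5_RD replicate 4 was low for its group, and the log2 difference was -0.55 (SE 0.19, adjusted p = 0.146).

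Kcnd2 was at 12.0, 10.8, 8.15 and 10.7 CPM in NaV1.5_RD and at 18.02, 13.9, 13.9, 11.3 and 14.8 CPM in NaV1.5_HFD. Only NaV1.5_HFD replicate 4 fell in the RD range, and the log2 difference was 0.46 (SE 0.16, adjusted p = 0.124). Kcnd3, the other Kv4 pore, differed by -0.08 (SE 0.11). Kcnj2 did not overlap between diets and differed by 0.26 (SE 0.10, adjusted p = 0.173). Kcnj3, Kcnj5 and Kcnk3 differed by -0.05, 0.15 and -0.13, and Kcna5 by -0.46 with a wide error (SE 0.25).

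For the diet in NaV1.5 mice, edgeR called 0 of the 10 genes and 1.13% of all genes. DESeq2 called 2 (Kcnh2 and Kcnq1) beside 5.12% of all genes, and limma-voom called these and Kcnip2 beside 12.1%. At an unadjusted p under 0.05 there were 5 of 10 beside 18.9% of all genes, and 2 of 10 did not overlap beside 5.91% of all genes. Without NaV1.5_RD replicate 4, edgeR called Kcnh2 and Kcnip2 as well, at adjusted p = 0.0299 and 0.0322. Fits with 1 library left out called 4 to 1138 of all genes, against 182 with every library. The summed atrial cardiomyocyte markers did not overlap between diets in NaV1.5 mice, at 75180 to 82992 CPM on HFD and 84902 to 93933 CPM on RD. The genes in this sum went both ways. Nppa (-0.44, edgeR adjusted p = 0.0279) was lower on HFD and passed. Myh6 (-0.40, edgeR adjusted p = 0.112) was lower without passing, and Ttn (0.24) and Ryr2 (0.22) were higher without passing. Scaling to cardiomyocyte genes uses this same sum. Mitochondrial genes took 20.4% to 25.3% of counts on HFD and 18.8% to 20.6% on RD. The part of either in the channel values was not tested. With scaling to cardiomyocyte genes, which moved the median of all genes by 0.19, Kcnh2 was at -0.21, Kcnq1 at -0.23 and Kcnip2 at -0.36 (adjusted p from 0.221 to 0.272), and Kcnj2 (0.46), Kcnj5 (0.36) and Kcnd2 (0.66) passed with adjusted p from 0.0034 to 0.0193. Base composition differed among the 10 genes. The longest transcripts of Kcnh2, Kcnq1 and Kcnip2 hold 61.3%, 56.9% and 55.1% G and C, and those of Kcnj2 and Kcnd2 41.2% and 44.4%. The others were Kcnk3 (59.1%, log2 difference -0.13), Kcna5 (54.3%, -0.46), Kcnj5 (50.2%, 0.15), Kcnd3 (49.1%, -0.08) and Kcnj3 (43.9%, -0.05). The part of base composition in the channel values was not tested. With offsets for GC content and gene length the log2 differences were -0.22 for Kcnh2, -0.27 for Kcnq1, -0.41 for Kcnip2, 0.37 for Kcnd2 and 0.12 for Kcnj2, with adjusted p from 0.238 to 0.651. The genotype call of Kcnj2 averaged over diets kept its size under the same offsets, at 0.34 (adjusted p = 0.0416).

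In control mice the diet gave smaller values for these genes. Kcnh2 was at 229.5, 200, 194 and 187 CPM in Ctrl_RD and at 147, 184 and 199 CPM in batch 1 Ctrl_HFD, with a log2 difference of -0.20 (SE 0.13). Kcnq1 differed by -0.16 (SE 0.15), Kcnip2 by -0.33 (SE 0.22), Kcnd2 by 0.16 (SE 0.18) and Kcnj2 by 0.16 (SE 0.11). Kcnj5 had the smallest p, at 237, 221, 179 and 211 CPM in Ctrl_RD against 224, 245 and 302 CPM, and overlapped (0.28, SE 0.11, edgeR adjusted p = 0.532). Of the 10 genes 0 passed in edgeR, DESeq2 or limma-voom, beside 0%, 0.0866% and 0.464% of all genes. At an unadjusted p under 0.05 there was 1 of 10 beside 8.49% of all genes. All 10 overlapped, while 10% of all genes did not.

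Whether the diet difference itself depended on genotype was tested as an interaction. None of the 10 genes passed in edgeR, DESeq2 or limma-voom, beside 0% of all genes in each, and 0 of 10 had an unadjusted p under 0.05, beside 2.26% of all genes. The interaction was -0.21 (SE 0.18) for Kcnh2, -0.27 (SE 0.20) for Kcnq1, 0.31 (SE 0.24) for Kcnd2 and 0.10 (SE 0.15) for Kcnj2. The widest was Kcna5 at -0.57 (SE 0.37). A different response in NaV1.5 and control atria was therefore not shown for any of them.

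**Figure D3:**
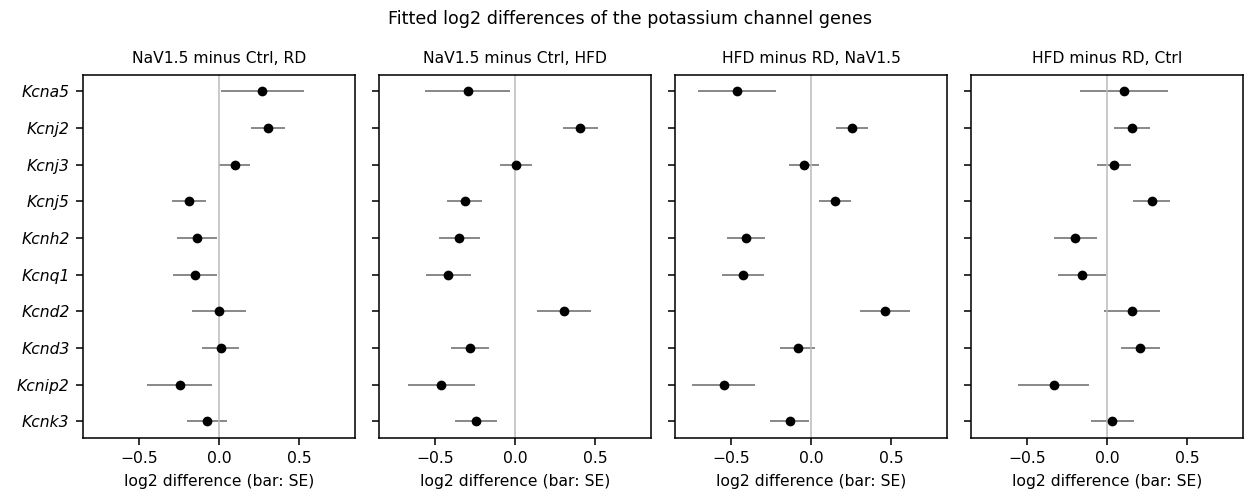
Fitted log2 differences (points) with their SE (bars) for the 10 genes in 4 comparisons, with NaV1.5 minus Ctrl on each diet and HFD minus RD in each genotype. Kcnj2 lies above 0 in all 4 panels, and Kcnh2, Kcnq1 and Kcnip2 lie below 0 in all 4; neighbouring panels share libraries.

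Averaged over both genotypes, the diet gave log2 differences of -0.30 for Kcnh2 (SE 0.09, edgeR adjusted p = 0.0553), -0.44 for Kcnip2 (SE 0.15), -0.29 for Kcnq1 (SE 0.10), 0.31 for Kcnd2 (SE 0.12), 0.21 for Kcnj5 (SE 0.08) and 0.21 for Kcnj2 (SE 0.08). The last 5 had adjusted p from 0.0893 to 0.123. In edgeR 0 of the 10 genes passed, beside 4.95% of all genes. DESeq2 called Kcnh2, Kcnip2 and Kcnj5 beside 10.1% of all genes, and limma-voom these and Kcnq1 and Kcnj2 beside 24.1%. At an unadjusted p under 0.05 there were 6 of 10 beside 23.5% of all genes. With offsets for GC content and gene length, added after the data were seen, Kcnh2 was at -0.13 (adjusted p = 0.316), Kcnq1 at -0.15, Kcnip2 at -0.32, Kcnd2 at 0.23 and Kcnj2 at 0.08, while Kcnj5 was at 0.24. With scaling to cardiomyocyte genes Kcnh2 was at -0.17 and Kcnq1 at -0.15, and Kcnj2 (0.34), Kcnj5 (0.36) and Kcnd2 (0.44) passed. Without Ctrl_HFD replicate 3 or NaV1.5_RD replicate 4 the edgeR count was 3, without NaV1.5_HFD replicate 1 it was 2, and without Ctrl_RD replicate 4 or NaV1.5_HFD replicate 4 it was 1. Over all genes, fits with 1 library left out called 173 to 2202, against 800 with every library.

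Levels of subunits that assemble with each other are given as ratios, on which no test was run. The ratio of Kcnip2 to the summed Kcnd2 and Kcnd3, per exon base, was 6.15 ± 0.536 in Ctrl_RD (SD, n = 4), 5.14 ± 1.29 in NaV1.5_RD (n = 4), 4.35 ± 1.04 in batch 1 Ctrl_HFD (n = 3) and 2.89 ± 0.813 in NaV1.5_HFD (n = 5). Every NaV1.5_HFD library (2.10 to 4.12) lay below every Ctrl_RD library (5.48 to 6.63), and NaV1.5_HFD overlapped the other 2 groups. The ratio of Kcnj3 to Kcnj5 was 2.82 ± 0.2996 in Ctrl_RD, 3.42 ± 0.341 in NaV1.5_RD, 2.41 ± 0.366 in batch 1 Ctrl_HFD and 2.97 ± 0.344 in NaV1.5_HFD, with overlapping ranges between genotypes on each diet. Kcnd2 to Kcnd3 was 1.82 ± 0.590 in Ctrl_RD and 2.58 ± 0.479 in NaV1.5_HFD, with overlap.

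Kcnh2 and Kcnq1, the rapid and slow delayed rectifier genes, varied together between libraries of the same group. Their ratio stayed between 2.55 and 2.703 in the means of the 4 diet groups. Over the 16 batch 1 libraries, with group means subtracted, Pearson's r was 0.893 (permutation adjusted p = 0.00315) and Spearman's rho 0.847 (permutation adjusted p = 0.0306), with permutation within groups and adjustment over all 45 pairs of the 10 genes. Without the 2 libraries farthest from the median of Kcnh2, r was 0.877. This was the 1 pair of 45 that passed on both measures, and r ranged from -0.483 to 0.893 over the pairs. The pair does not stand out from all genes, as each had a higher r with genes outside the 10. Examples are Kcnh2 with Foxp4 (0.943) and Kcnq1 with Gnao1 (0.947). Both genes are rich in G and C, and with each library's trends on GC content and gene length removed r was 0.798 and rho 0.824 (permutation p = 0.0013 for both, unadjusted).

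**Figure D4:**
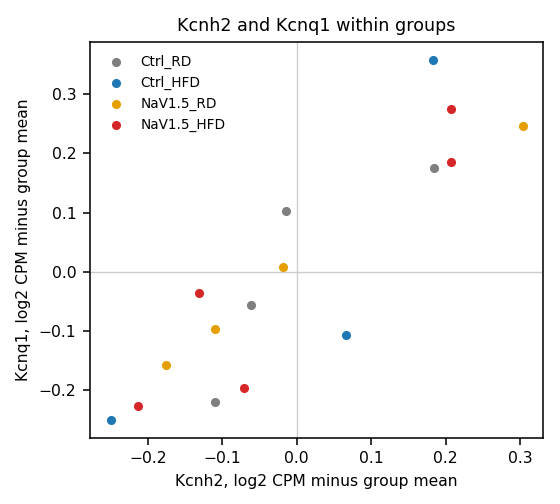
Log2 CPM of Kcnq1 against Kcnh2 in the 16 batch 1 libraries, each minus its group mean. Points are libraries coloured by group, and they rise along a diagonal with r of 0.893.

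The genes most like each member over the same 16 libraries are a description, as each is the highest of many correlations and the libraries share depth and base composition trends. For Kcnj2 they were Gcdh, Prmt7 and Epb41l4a (Pearson's r 0.854 to 0.844), for Kcnj3 Thumpd1, Akap7 and BC025920 (0.837 to 0.811), and for Kcnj5 Mthfd2l, Spock2 and Rpap2 (0.939 to 0.857). Kcnh2 was nearest to Foxp4, Zfp574 and Rgma (0.943 to 0.914) and Kcnq1 to Gnao1, Grb2 and Zbtb45 (0.947 to 0.929). Kcna5 went with Gdf10, Tcim and Sfi1 (0.851 to 0.827). The transient outward genes were nearest to Mtfr1, Dcaf6 and Zmynd11 for Kcnd2 (0.911 to 0.851), Pik3r2, Npff and Ppp1r37 for Kcnd3 (0.851 to 0.798) and Ttc17, Gne and Rftn1 for Kcnip2 (0.901 to 0.884). Kcnk3 was nearest to Celsr3, Dhrs11 and Lrtm1 (0.925 to 0.914).

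Other potassium channel genes gave 1 call. Kcnh7, an ERG channel related to Kcnh2, fell with genotype averaged over diets by 0.70 on the log2 scale (SE 0.13, edgeR adjusted p = 0.0138), 1 of 14 other voltage-gated channel genes measured, beside 0.452% of all genes called in this comparison. It differed by -0.64 (SE 0.18) on regular diet and -0.77 (SE 0.19) on high-fat diet. The Kcnh7 call was lost in the fit with the replicate number as a block, which omits the unnumbered libraries (adjusted p = 0.0537). It was also lost without Ctrl_HFD replicate 2 (adjusted p = 0.0502). Kcne4, an auxiliary subunit that can inhibit Kcnq1 channels, was next at 0.80 (SE 0.20, adjusted p = 0.0818), and 0 of 7 auxiliary subunit genes passed in edgeR with 1 at an unadjusted p under 0.05. Of 6 other inward rectifier and ATP-sensitive channel genes and 10 two-pore and calcium-activated channel genes, 0 passed in edgeR, with 1 in each at an unadjusted p under 0.05, where 11.4% of all genes lay.

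In that averaged comparison Etv1 (0.35, SE 0.09) and Rgs2 (0.56, SE 0.16) followed without passing. On regular diet alone, genes of these lists with the smallest p were Kcne4 (1.03), Kcnh7, Rgs2 (0.64) and Kcnf1 (3.21, SE 1.23), and on high-fat diet Kcnh7, Etv1 (0.40), Gnao1 (-0.44) and Irx5 (0.90), with edgeR adjusted p from 0.149 to 0.77. Kcnf1, a silent voltage-gated subunit, had only 0 to 4 counts per library in Ctrl_RD and 1 to 34 in NaV1.5_RD, so the size of its fitted difference depends on the prior count. Rgs2 encodes a regulator that shortens G protein signals, Gnao1 a G protein alpha subunit, and Etv1 and Irx5 transcription factors of cardiac electrical identity.

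Genes around the channels gave calls for the diet averaged over genotypes, where 4.95% of all genes passed. Of 12 transcription factors, Tbx5, an atrial regulator of rhythm genes, fell by 0.50 (SE 0.11, edgeR adjusted p = 0.0206) and 0 rose. Of 11 anchoring and trafficking partners 2 rose and 1 fell. Kif5b, a kinesin motor, rose by 0.39 (SE 0.08, adjusted p = 0.0163) and the LIM protein gene Fhl1 by 0.30 (SE 0.07, adjusted p = 0.029). Nedd4l, a ubiquitin ligase that removes ion channels from the membrane, fell by 0.36 (SE 0.09, adjusted p = 0.0233). Of 17 genes of the muscarinic and G protein pathway to Kcnj3 and Kcnj5, 1 rose and 1 fell. Chrm2, the M2 receptor that opens this channel, was at 0.24 (SE 0.07, adjusted p = 0.0487), and Gnb2, a G protein beta subunit, at -0.26 (SE 0.07, adjusted p = 0.0389).

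Several of these calls were lost in alternatives. With offsets for GC content and gene length Gnb2 was at -0.09 (adjusted p = 0.356), Chrm2 at 0.11 (adjusted p = 0.428) and Kif5b at 0.23 (adjusted p = 0.0638), while Tbx5 was at -0.44 (adjusted p = 0.0292), Nedd4l at -0.48 (adjusted p = 0.00703) and Fhl1 at 0.33 (adjusted p = 0.0212). With scaling to cardiomyocyte genes the calls of Nedd4l (-0.23, adjusted p = 0.117) and Gnb2 (-0.13, adjusted p = 0.301) were lost. The fit with the replicate block, which omits the unnumbered libraries, ended those of Fhl1 (adjusted p = 0.0867), Gnb2 (adjusted p = 0.0786) and Chrm2 (adjusted p = 0.0788). With no batch term Fhl1 (adjusted p = 0.0697) and Chrm2 (adjusted p = 0.059) did not pass, nor did Chrm2 with no low-count filter (adjusted p = 0.0523). Tbx5 kept its call under all 12 tools, scalings, filters and designs tried. Leaving out Ctrl_HFD replicate 2 ended all 6 calls, with adjusted p up to 0.0512 for Kif5b, 0.0676 for Tbx5, 0.0739 for Nedd4l, 0.0775 for Fhl1, 0.122 for Gnb2 and 0.143 for Chrm2 over the libraries that ended them. Ctrl_HFD replicate 1 ended those of Tbx5, Nedd4l, Fhl1, Gnb2 and Chrm2. Ctrl_RD replicate 3 and NaV1.5_RD replicate 2 ended those of Nedd4l, Fhl1, Gnb2 and Chrm2, and Ctrl_RD replicate 1 and NaV1.5_RD replicate 3 those of Fhl1, Gnb2 and Chrm2. Gnb2 and Chrm2 also lost theirs without Ctrl_RD replicate 2 or NaV1.5_HFD replicates 1 or 3, Gnb2 without NaV1.5_HFD replicate 2, and Chrm2 without Ctrl_RD replicate 4, Ctrl_HFD replicate 3, NaV1.5_RD replicate 1 or NaV1.5_HFD replicate 5.

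Within NaV1.5 mice, the diet gave Tbx5 at -0.60 (edgeR adjusted p = 0.0521), Kif5b at 0.44 (adjusted p = 0.0553), Nfatc3 at 0.33 (adjusted p = 0.058) and Nedd4l at -0.38 (adjusted p = 0.0803), none past the threshold. In control mice the smallest p belonged to Kif5b (0.34), Nedd4l (-0.34), Fhl1 (0.29) and Kcnj12 (0.35), with edgeR adjusted p from 0.524 to 0.532. For the interaction they belonged to Nfatc3 (0.26), Kcnf1 (-3.29, SE 1.60), Kcnn4 (-0.89) and Irx5 (0.70), and for NR to Mef2a (-0.28), Gnai1 (-0.43), Kcnh7 (-0.56) and Rgs10 (0.36), none past the threshold in edgeR.

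In the second experiment NR was compared with vehicle in NaV1.5 mice on HFD, and the fitted contrast rests on NR replicates 6 and 7 against 5 vehicle libraries of the same batch. Kcnj2 was at 102, 83.9, 98.9, 84.2 and 113 CPM with vehicle and at 66.2 and 74.0 CPM with NR in batch 3. Both NR libraries lay below all vehicle libraries, with a log2 difference of -0.46 (SE 0.14) that did not pass (edgeR adjusted p = 0.18). With batch 3 libraries alone it was -0.45, and with offsets for GC content and gene length -0.37 (adjusted p = 0.387). The other 9 genes overlapped in batch 3. Kcnj3 and Kcnd2 had the next largest differences, at -0.33 (SE 0.24) and -0.32 (SE 0.23), while Kcnh2, Kcnq1 and Kcnj5 differed by -0.08 (SE 0.07), -0.03 (SE 0.12) and -0.04 (SE 0.15). Of the 10 genes 0 passed in edgeR, DESeq2 or limma-voom, beside 0.425%, 1.44% and 0.340% of all genes. There was 1 of 10 at an unadjusted p under 0.05 beside 11.1% of all genes, and 1 of 10 without overlap beside 14.2% of all genes.

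The NR libraries of batch 2 lay below every vehicle library for 9 of the 10 genes, with Kcnd2 overlapping, beside 22.7% of all genes that did so. Kcnk3 was at 88.5, 75.7, 108, 80.2 and 88.8 CPM in NR replicates 1 to 5, at 229 and 234 CPM in replicates 6 and 7, and at 319, 210.1, 245, 239 and 261 CPM with vehicle. Kcnh2 was at 59.8 to 65.5 CPM in NR of batch 2, against 153 and 158 CPM in NR of batch 3. The summed atrial cardiomyocyte markers were 34870 to 41964 CPM in batch 2 NR libraries, 81909 and 87053 in batch 3 NR libraries and 75051 to 91321 with vehicle. As no vehicle library is in batch 2, batch and treatment cannot be told apart for these 5 libraries.

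**Figure D5:**
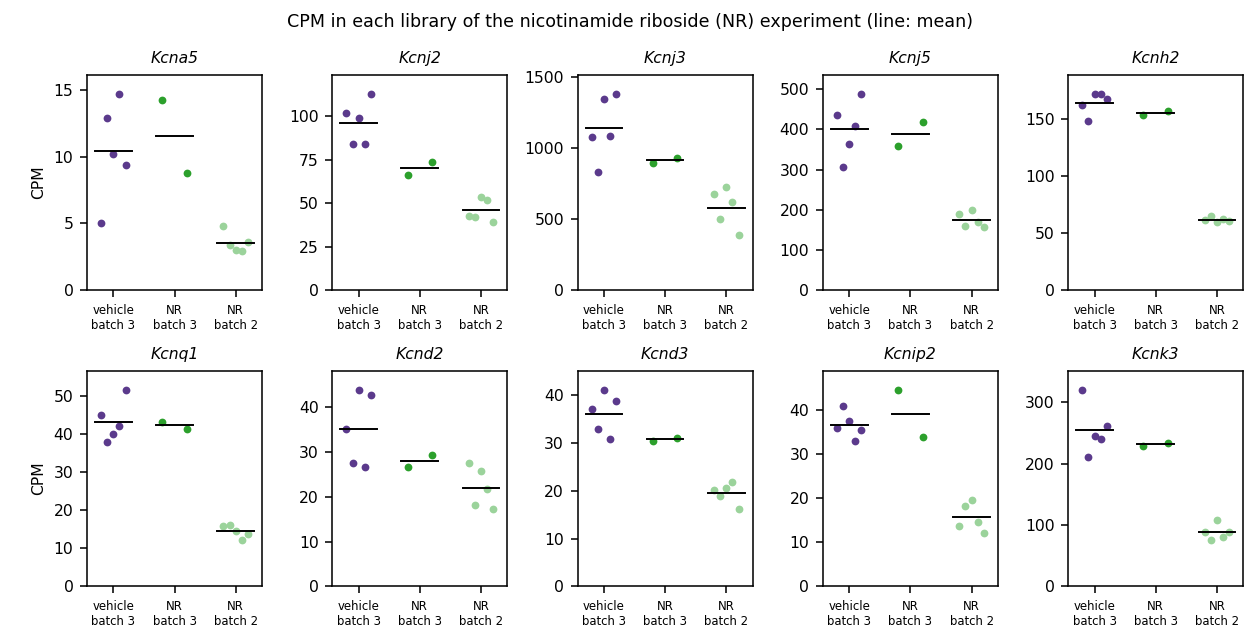
CPM of each gene in the 12 libraries of the NR experiment by treatment and batch (linear axes from 0). Points are libraries and lines are means; NR libraries of batch 3 lie within or near the vehicle range, with Kcnj2 below it, and NR libraries of batch 2 lie lower for most genes.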

How the data were processed

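The deposited values are raw counts of fragments for each gene of GENCODE M25, which the authors obtained with featureCounts 2.0.1, per the file headers. STAR 2.7.6a, FastQC 0.11.7 and builds GRCm38 and mm10 are named in the submitters' processing notes. Per the file headers counting did not use strand. Exon bases shared with another gene were 5.76% for Kcnk3 (Gm9899), 2.96% for Kcnq1 (Kcnq1ot1) and 1.72% for Kcnd3 (Kcnd3os), which makes those genes' counts less certain, and 0 for the other 7. All 59 pairs of libraries within groups differed beyond counting noise (at least 6.9 per gene by chi-square), so none was merged.

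Genes were tested with edgeR 4.0.16 in R 4.3.3 (quasi-likelihood F-test, filterByExpr, TMM, 2-sided, Benjamini-Hochberg over all genes, threshold 0.05), in one fit for the 17 diet libraries and one for the 12 vehicle and NR libraries, each with group and batch. The SE of a log2 difference is its size divided by the square root of F. The labels gave groups, numbers and batches, except the number of Ctrl_RD replicate 1 and of NaV1.5_RD replicate 4, which only name those libraries. The replicate block fit of the diet experiment left both of them out. Correlations were computed on log2 CPM (prior count 2), with 100000 permutations inside groups. Alternatives were DESeq2 1.42.0 (test and size factors), limma-voom (limma 3.58.1), scaling to cardiomyocyte genes, a gene length offset, no filter, a filter of 1 CPM, no batch term, 1 batch alone, one joint fit of all 29 libraries, a block on replicate number, and each library left out. Offsets for GC content and length were an addition made after seeing the data. GC content was that of each gene's longest transcript in an earlier GENCODE release than the one counted. The fit was tested on simulated data with known changes.

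The 10 genes and all lists were chosen with earlier results of these data known. The genes named are the 10 in every comparison, from the other lists those past the threshold and up to 4 with the smallest p per comparison, and the 3 genes most correlated with each of the 10. Promoter windows are from RefSeq. Python 3.11.15 and matplotlib 3.10.9 read files and drew figures.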

Additional observations from a re-analysis of the deposited data

How the results depend on the processing

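Among the 10 channel genes, the count past the threshold for the diet averaged over genotypes was 0 in the fit reported. It was 1 with no low-count filter, 1 with no batch term, 3 with scaling to cardiomyocyte genes and 3 with all libraries in one fit. With the DESeq2 test it was 3 (beside 10.1% of all genes), with limma-voom 5 (beside 24.1%), and with 1 library left out 0 to 3. These alternatives called 285 to 3898 of all genes, those with 1 library left out 173 to 2202. For the diet in NaV1.5 mice (0) it was 3 with scaling to cardiomyocyte genes (Kcnj2, Kcnj5 and Kcnd2) and 2 with all libraries in one fit. It was 2 with DESeq2 (beside 5.12% of all genes), 3 with limma-voom (beside 12.1%) and 0 to 2 with 1 library left out. These alternatives called 27 to 2947 of all genes, those with 1 library left out 4 to 1138. For genotype averaged over diets (1) it was 2 with limma-voom (Kcnj2 and Kcnj5), 0 with the replicate block and 0 to 1 with 1 library left out. There the alternatives called 36 to 523 of all genes, and those with 1 library left out 40 to 129. For genotype on high-fat diet (0) it was 1 with scaling to cardiomyocyte genes, where the alternatives called 8 to 124 of all genes. For NR (0) it was 8 with no batch term and 10 with the replicate block, fits that compare batch 2 NR libraries with batch 3 vehicle libraries. There Kcna5 was at -1.47 and Kcnip2 at -1.24, while over the alternatives they reached up to 0.15 and 0.11. Of all genes the NR alternatives called 7 to 9694, against 70 in the fit reported. Calls over all genes moved in other comparisons too, as given below. The counts for genotype on regular diet, diet in control mice and the interaction were 0 under all alternatives run. Of 2270 differences of the 10 genes under alternatives, 2201 kept their side of the threshold, and 88 of those that did not pass in either fit had the other sign. Of the rest, 11 lost a call, 56 gained one and 2 passed with the sign reversed. Where a count moved, the cause was not tested.

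Scaling to cardiomyocyte genes moved the median of all genes by 0.13 for the diet averaged, 0.12 for genotype averaged, 0.13 for the interaction and 0.19 for the diet in NaV1.5 mice. Calls over all genes went from 76 higher and 106 lower to 2891 and 56 for the latter, from 350 and 450 to 2843 and 99 for the diet averaged, and from 44 and 29 to 389 and 27 for genotype averaged. Over all alternatives, the count of all genes called was 1 to 27 for genotype on regular diet (2 in the fit reported), 8 to 124 for genotype on high-fat diet (14), 27 to 2947 for the diet in NaV1.5 mice (182), 0 to 75 for the diet in control mice (0), 36 to 523 for genotype averaged (73), 285 to 3898 for the diet averaged (800), 0 for the interaction and 7 to 9694 for NR (70).

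The replicate numbers do not pair the libraries: same-numbered libraries correlated at -0.168 to 0.166 in their deviations from group means, 4 of 16 pairs over 0.1, and 3 of 14 libraries correlated best with their own number. With the replicate block, and without the libraries that have no number, Kcnj2 was at 0.33 (adjusted p = 0.117) for genotype averaged. Counts limit Kcna5 most, at 44 to 309 per library.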
